A study of Mus musculus with 2 samples.

Results

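By the authors' classes, the transcript models described here lack introns of a longer transcript at the 3′ side. As classed, they are incomplete splice matches, whose spliced introns form an unbroken stretch of the introns of a longer transcript. The subtype is Prefix (the chain starts with the first intron of the longer transcript) or Both. In Both, the chain is a first part of a transcript and a last part of another. A model was kept where the same gene and the same intron chain were found in both libraries. This left 727 models in 582 genes, out of 2216 prefix models of annotated genes among 65815 models in replicate 1 and 3959 among 99180 in replicate 2. The subtype was Prefix in both libraries for 663 models, Both in both for 55, and differed between the libraries for 9. Not every model stops short of an annotated transcript: 117 ended at or past the end of the longer annotated transcript in both libraries. For another 82, no annotated transcript of the gene begins with their chain.

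The study sequenced full-length cDNA of adrenal gland RNA with long reads. Its single group holds 2 libraries, biological replicates 1 and 2, from female B6CASTF1/J mice aged 25 days, with no treatment, no engineered allele and no second condition. The tissue descriptions name a different animal for each library, whereas the library descriptions name the same one, so differences between the libraries may be technical. The tables hold 426150 reads in replicate 1 and 770041 in replicate 2, of which 397176 and 712032 fall on annotated genes. Markers of both parts of the gland were read: 4612 and 6329 reads for Star and 11136 and 17191 for Cyp11a1 of the steroid-producing cortex, and 842 and 1206 for Th and 202 and 412 for Pnmt of the chromaffin cells of the medulla. Ucp1, a marker of brown fat, had 209 and 199 reads, and Alb, a liver marker, had 32 and 1; their part in the values below was not tested.

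The 3′ end of a messenger RNA is made by cleavage and addition of a poly(A) tail, directed by a hexamer such as AATAAA in the DNA a short way upstream of the cut. Introns hold such hexamers too, and an RNA cut inside an intron loses the exons that follow; the U1 small nuclear ribonucleoprotein is known to restrain this. An oligo(dT) primer pairs with the tail, but can also pair with a run of A inside a transcript; how the cDNA was primed is not given in the sources used here. A prefix model can also arise where the last introns are not spliced, since only the introns that are spliced count towards the chain.

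Some ends are shown first, because they display the 3 kinds of sequence met at ends that match no annotated exon boundary. Each run has the 50 bases up to the end of the model in lower case and the 20 bases after it in capitals, 5′ to 3′ on the strand of the gene, taken from GENCODE M21 transcripts on build mm10. For models whose ends differ by a few bases between the libraries, the end of replicate 1 is shown.
Son 3-exon, chr16:91654650-91654719, plus strand: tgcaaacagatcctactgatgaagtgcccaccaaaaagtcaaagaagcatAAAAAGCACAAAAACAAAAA
2700097O09Rik 5-exon, chr12:55056255-55056324, minus strand: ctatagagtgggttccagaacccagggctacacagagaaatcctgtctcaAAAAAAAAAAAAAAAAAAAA
Ppm1a 2-exon, chr12:72787345-72787414, plus strand: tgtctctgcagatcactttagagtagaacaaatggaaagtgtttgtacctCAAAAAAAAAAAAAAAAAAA
M6pr 3-exon, chr6:122314019-122314088, plus strand: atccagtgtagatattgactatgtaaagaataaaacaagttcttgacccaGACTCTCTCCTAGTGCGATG
Igdcc4 12-exon, chr9:65129539-65129608, plus strand: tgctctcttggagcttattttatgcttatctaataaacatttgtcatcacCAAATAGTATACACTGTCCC
Ccnl2 6-exon, chr4:155818951-155819020, plus strand: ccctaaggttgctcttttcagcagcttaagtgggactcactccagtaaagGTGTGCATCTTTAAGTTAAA
Cyp11a1 5-exon (b), chr9:58021232-58021301, plus strand: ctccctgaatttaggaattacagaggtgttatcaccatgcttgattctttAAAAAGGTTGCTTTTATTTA

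The first 3 of these ends run straight into A. After the end of the Son model, 16 of the 20 bases are A, and after those of 2700097O09Rik and Ppm1a 20 and 19 are. None of the 3 has AATAAA or ATTAAA in the 50 bases before the end. M6pr and Igdcc4 show the other kind: AATAAA begins 22 and 19 bases from the end, counted with the end base, and 3 and 7 of the next 20 bases are A. The Ccnl2 and Cyp11a1 ends have neither, with 6 and 7 A in the 20 bases that follow.

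A model's end is 1 position. No intron chain occurred more than once within a library, so all reads of a chain share 1 model and 1 pair of ends, and the ends of its single reads were not analysed here. The ends were sorted by where they lie relative to the parent, the annotated transcript with the most reads among those whose chain begins with that of the model. Of the 727 models, 645 had such a parent, and 139 ended in the last exon they share with it in both libraries (up to 10 bases past its donor, the 3′ edge of that exon). Another 207 ended in the intron that follows, 240 ended past the next acceptor, where the following exon begins, and 59 fell in different places in the 2 libraries. Ends in the following intron thus made up 32.1% of the 645 (95% Wilson interval 28.6 to 35.8, counting error only), and the 346 models that ended in the exon or the intron made up 47.6% of the 727. In replicate 1 these 346 held 324 reads in the exon class and 405 in the intron class, against 651 and 667 in replicate 2.

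**Figure D1:**
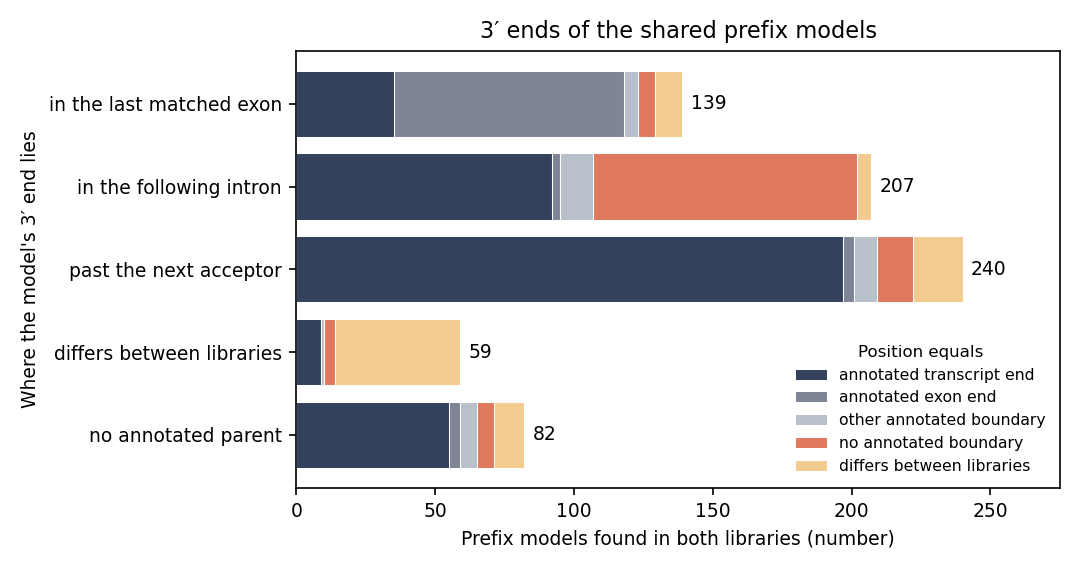
Number of shared prefix models by where their 3′ end lies (bars) and by what the end position equals in the annotation (colours), with the total of each bar beside it. Of the 139 ends in the last shared exon, 83 equal an annotated exon end in both libraries, 35 an annotated transcript end and 6 no annotated boundary. Of the 207 ends in the following intron, 92 equal an annotated transcript end in both libraries and 95 equal no annotated boundary. Of the 240 ends past the next acceptor, 197 equal an annotated transcript end.

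Models past the next acceptor kept the following intron in full, so that exons counted as missing were in part present but not joined. Every remaining intron of the parent was kept by 213 of the 240, a single intron by 190, and 117 ended at the parent's end or beyond it in both libraries. The last junction alone was missing from 169. Their following introns were short, with a median of 349 bases against 1118 for the 5819 introns of all parents. A model must span the whole intron to enter this class, so its definition favours short introns. Mbd3, a subunit of the NuRD chromatin complex, is an example: its most read model had 15 and 30 reads, kept a last intron of 76 bases and ended at the parent's own end in both libraries. Hnrnpa2b1, an RNA-binding protein gene, had 3 models that kept an intron of 156 bases, the most read with 9 and 8 reads.

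For the other 82 models, which the deposited files class as prefix, no annotated transcript of the gene begins with their chain. Of these, 29 have an intron that the annotation lacks, 26 join annotated introns in an order that it lacks, 15 are made of inner introns of an annotated transcript and 12 are the last introns of one. The most abundant shared prefix model belongs here. It is the 9-exon model of Cyp21a1, the steroid 21-hydroxylase of the cortex, with 435 reads in replicate 1 and 659 in replicate 2, or 19.4% and 17.8% of all reads of the 727 models. Its chain holds the last 8 introns of the annotated 10-exon transcript, so relative to that transcript it lacks an intron at the 5′ and not the 3′ side. The model begins at an annotated transcript start of the gene in both libraries. Its end was an annotated transcript end in replicate 1 and lay 674 bases past it, at no annotated boundary, in replicate 2. Reads of Cyp21a1 and of its near-identical pseudogene cannot be told apart with certainty.

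**Figure D2:**
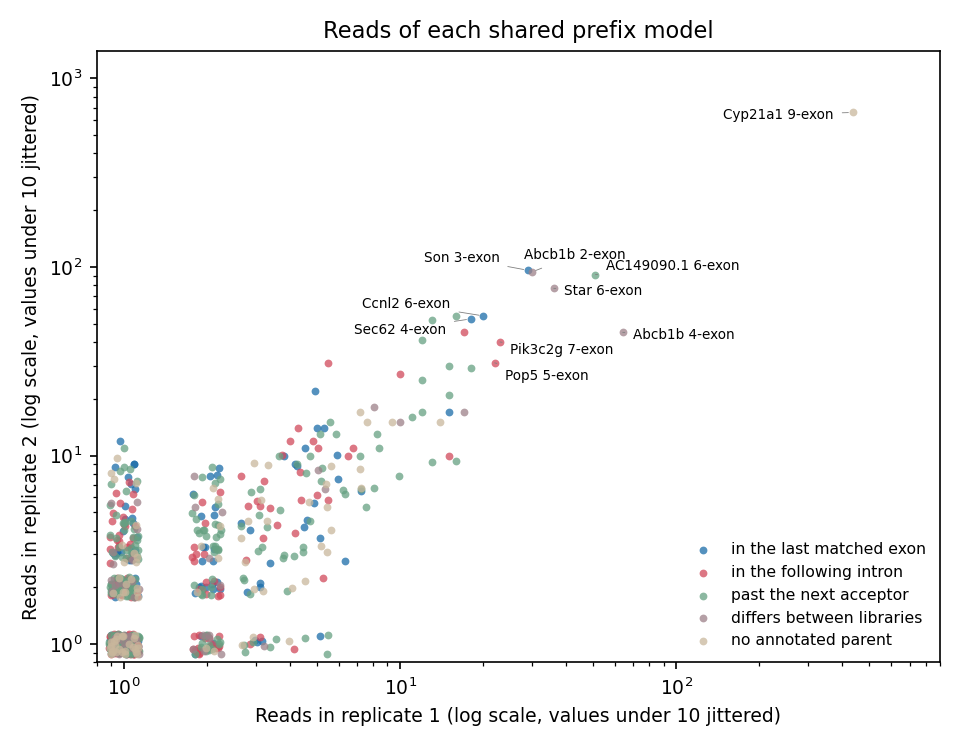
Reads of each of the 727 shared prefix models in replicate 1 and replicate 2 on log axes, coloured by where the 3′ end lies. Most points sit near 1 read in each library; the 9-exon Cyp21a1 model, at 435 and 659 reads, stands apart.

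Read support was thin. In both libraries 253 models had 1 read, 212 had at least 2 reads in each, 72 at least 5 and 26 at least 10. Of the prefix models with 1 read, 24.9% of those in replicate 1 were found again in replicate 2 and 10.3% of those in replicate 2 were found in replicate 1, whereas 89.1% and 78.2% of those with at least 5 reads were. The 727 models together held 0.542% ± 0.0306 (SD, n = 2) of the reads on annotated genes, and all prefix models of each library held 1.06% ± 0.0920 (SD, n = 2). The share of genes with a shared prefix model was 1.67% of 5385 genes with 2 to 19 reads in both libraries together, 5.10% of 4847 with 20 to 99, 8.96% of 2032 with 100 to 499, 16.7% of 282 with 500 to 1999, and 16 of 32 genes with at least 2000.

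The number of missing exons differed with where the model ended. Over the 645 models with a parent the median was 2 missing exons, with a highest value of 45. Models past the next acceptor lacked a median of 1 junction, while those ending in the last shared exon or in the following intron each lacked a median of 5 exons. Among the 346 models of these latter kinds, 66 lacked 1 exon. Where the parent has an annotated stop codon, 303 of 316 ended before it in both libraries, so the parent's reading frame is not complete in the model.

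**Figure D3:**
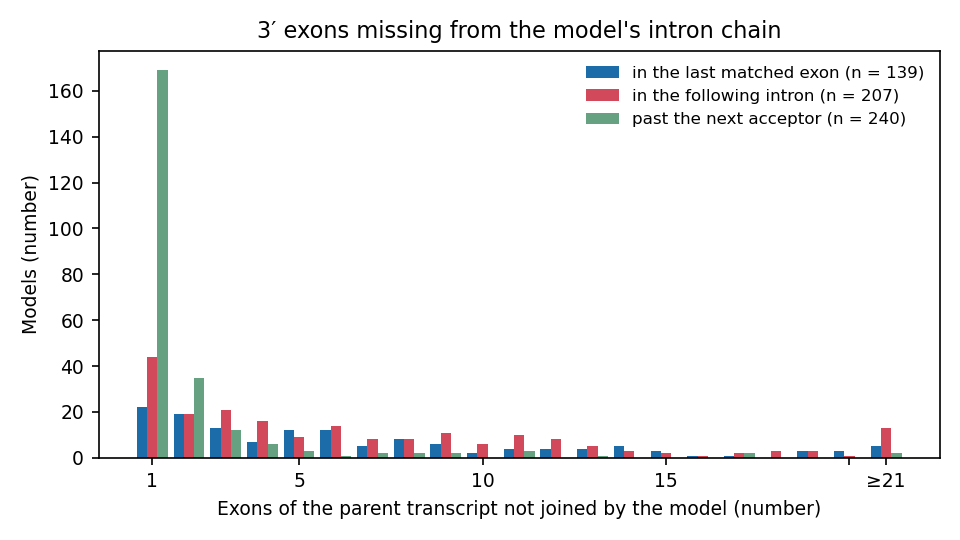
Number of parent exons whose junctions the model lacks, for models that end in the last shared exon, in the following intron and past the next acceptor in both libraries. Models past the next acceptor gather at 1, with 169 of 240 there, and the others spread up to 21 and more.

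The ends of the 2 libraries lay within 20 bases of each other for 569 of the 727 models (78.3%, 75.1 to 81.1), and 488 were identical. Much of this follows positions in the annotation. In both libraries, 388 models ended exactly at an annotated transcript end of the gene (53.4%), 94 at an annotated exon end, 32 at another annotated boundary and 124 at none. Distances to the nearest annotated transcript end left a gap next to 0: in replicate 1, 1082 of 2216 prefix models lay at distance 0, 5 between 1 and 50 bases and 29 between 1 and 300. In replicate 2 the numbers were 1828, 15 and 55 of 3959. Positions of reads that ended near an annotated end are therefore not resolved by these files. All 94 models at an annotated exon end had identical ends in the 2 libraries.

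Ends at no annotated boundary (free ends) carry positions of their own. Among those 124 models the ends were identical in 41 and within 20 bases in 82 (66.1%, 57.4 to 73.9), with a median distance of 3 bases and a highest of 5442. Agreement within 20 bases was 63 of 96 where a library had 1 read and 19 of 28 where both had at least 2. For comparison, 4780 suffix models (chains that lack the first introns) were found in both libraries. Of these, 87.7% ended at an annotated transcript end in both, and 184 of the 269 that ended at no annotated boundary in either library agreed within 20 bases (68.4%, 62.6 to 73.7). The intervals of the 2 classes overlap, and no test was made because models of 1 library are not replicates.

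**Figure D4:**
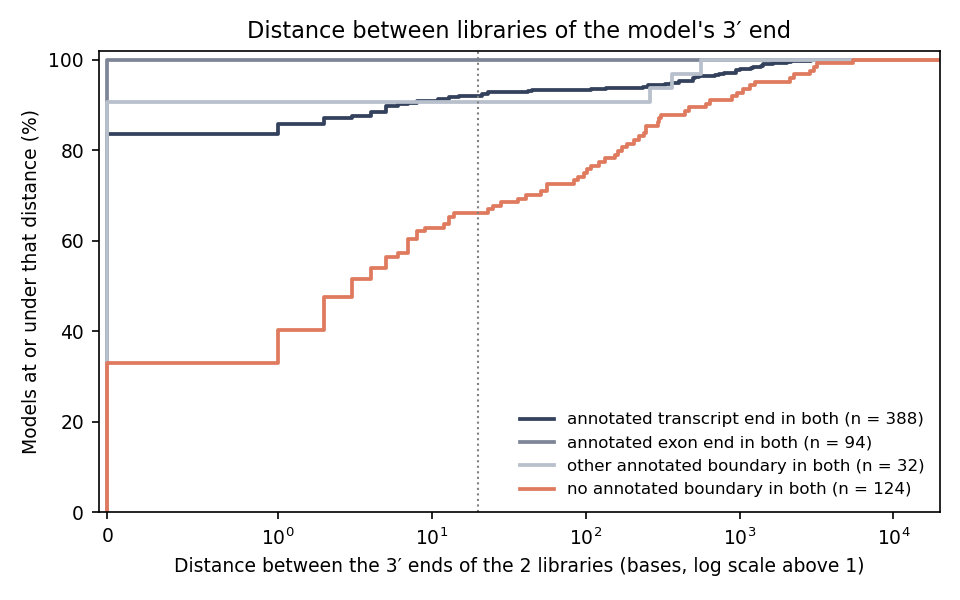
Cumulative share of shared prefix models by the distance between their 3′ ends in the 2 libraries, for 4 kinds of end position; the dotted line marks 20 bases. Ends at no annotated boundary reach 66.1% at that line and 33.1% at distance 0, below the ends that equal annotated positions.

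Combining the criteria left 68 candidate early ends in 61 genes: the end lies in the last shared exon or the following intron, equals no annotated boundary in either library and agrees within 20 bases. They are 64 ends in introns and 4 in exons, with 174 reads in replicate 1 and 358 in replicate 2. Support is given as reads of the chain, since the ends of single reads were not analysed. It was 1 read in each library for 22 candidates, at least 2 in each for 14 and at least 5 in each for 5. The intron ends lay a median of 918 bases past the donor in replicate 1 and 921.5 in replicate 2, the closest at 297 and 299. The introns had a median length of 3683 bases, and 12 of the 64 were the longest intron of their parent. The candidates lacked a median of 6 exons, and 60 of the 61 with a stop codon in the parent ended before it in both libraries.

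The 5 candidates with at least 5 reads in each library were in Son, Ccnl2, Fam120aos, Pik3c2g and Akr1cl. Son (chr16:91647506-91679221) encodes a large protein of nuclear speckles that acts in splicing. Its 3-exon model had 29 of the 39 Son reads in replicate 1 and 96 of 115 in replicate 2, or 74.4% (58.9 to 85.4) and 83.5% (75.6 to 89.2). Both libraries placed the end at the same base, 91654699, in coding sequence of the third exon and 5881 bases before its donor, where the A-rich run shown above begins. The model lacks 4 of the 7 exons of its parent, and 2 to 10 exons over the 5 annotated transcripts that begin with its chain.

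Ccnl2, at chr4:155812489-155824543, encodes a cyclin also found in nuclear speckles. Its 6-exon model had 20 of 113 reads and 55 of 212, or 17.7% and 25.9% of the gene, with the same end base in both libraries. The parent, the only annotated transcript that begins with this chain, is annotated as a retained-intron transcript, which is non-coding, with a long sixth exon. The end lies 1428 bases before the donor of that exon. No hexamer of the pair searched and no A-rich stretch flanks it, as the printed run shows.

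Fam120aos, a non-coding gene that lies antisense to Fam120a, had a 2-exon model of 10 of 13 reads and 27 of 34. Its end fell 616 bases into the following intron at the same base in both libraries. Whether the authors' counting used strand is not given in the sources used here, so reads of the antisense pair are uncertain. Pik3c2g, which encodes a class II phosphoinositide 3-kinase, had a 5-exon model of 15 and 10 reads that ended 1171 bases into an intron of 3967. Its 3-exon model, with 15 and 17 reads, ended at an annotated exon end and is no candidate. In Akr1cl, an aldo-keto reductase gene, a 4-exon model had 6 and 31 reads and ended 1502 and 1505 bases past the donor. Its share of the gene was 0.630% and 1.14%, far below the share of the Son model.

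Other members in introns ended at annotated transcript ends. The most read was the 7-exon model of Pik3c2g, with 23 of 161 reads and 40 of 298, which ended 1373 bases into an intron of 14920 at the same base in both libraries. The 2-exon model of Lrp6, the Wnt co-receptor, had 6 of 12 reads and 11 of 21 and lacked 21 of 23 exons; its end, 878 bases into an intron, has AATAAA or ATTAAA in the 50 bases before it. Ankrd11, a chromatin regulator, had a 7-exon model of 6 of 14 reads and 10 of 33, also with such a hexamer. Pop5, a subunit of RNase P, had a 5-exon model of 22 of 33 reads and 31 of 40, or 66.7% and 77.5%. Its subtype was Both in both libraries, so its chain is also the last part of another transcript. The end of this model, 119 bases past the donor, lies after the stop codon of the parent. That parent is annotated as a nonsense-mediated decay transcript, of which the model lacks 1 exon. Slc25a23, a mitochondrial carrier, had 5 of 11 and 12 of 25 reads in a 9-exon model that ended 135 bases past the donor with no such hexamer. The Ccdc9 12-exon model had 5 of 18 and 11 of 37 reads, with ends 13 bases apart at 2 annotated ends. Cryzl1, a quinone oxidoreductase-like gene, had a 9-exon model of 4 of 27 and 9 of 52 reads that ended 923 bases into an intron of 960.

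Cyp11a1, the side-chain cleavage enzyme that starts steroid synthesis, had 11 shared prefix models with 60 reads in replicate 1 and 91 in replicate 2, 0.539% and 0.529% of its reads. The most read is the 2-exon model, at 17 and 45 reads. It ended 967 bases into an intron of 1764, at the same base in both libraries; this base, 58017396, is the annotated start of another Cyp11a1 transcript, so it counts as an annotated boundary. The 4-exon model (a) and the 5-exon model (b), where letters separate models of equal exon number, are candidates with 3 and 6 and with 1 and 2 reads. The 6-exon model (b), the 7-exon and the 8-exon models kept the last 3, 2 and 1 introns and ended at the annotated end of the parent, with 15 and 21 reads for the 7-exon model.

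Star, the cholesterol carrier of mitochondria, had 5 models. Its 6-exon model had 36 and 77 reads, 0.781% and 1.22% of the gene. The ends were 2874 bases apart: replicate 1 ended 540 bases into the last intron and replicate 2 past it. For Abcb1b, a drug efflux pump gene with a closely related neighbour in Abcb1a, 11 models held 7.91% and 7.95% of the reads. The 2-exon model had 30 and 94 reads and the 4-exon model 64 and 45. Both ended at an annotated exon end in replicate 2 and 1006 bases further into the intron in replicate 1.

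Gene lists were counted next. Of the 20 steroidogenesis genes 19 were read in both libraries, and 11 had a shared prefix model (57.9%), against 582 of all 12578 genes (4.63%); their median was 1484 reads over both libraries, against 26 for all genes. They held 30 models, of which 10 ended past the next acceptor, 5 in an intron, 2 in an exon and 2 differently in the libraries, and 11 had no annotated parent. Among chromaffin genes 3 of 19 had a model: Pnmt with 5 and 10 reads, Chgb with 5 and 8, and Th with 1 and 1. In cholesterol synthesis 2 of 21 did, Mvk with 2 and 1 reads and Fdps with 1 and 1. Of the genes of cleavage and polyadenylation, 2 of 22 had one, Cpsf7 and Pabpc1, each at 1 read in both libraries. Of 14 U1-related genes, Luc7l2 had one, with 4 and 6 reads and ends 3180 bases apart in the same intron. Of 8 genes known from textbooks for intronic polyadenylation, Ighm and Gart had one, with 1 and 2 reads and with 1 and 1. All 3 cortex marker genes and 2 of 3 chromaffin marker genes had a model. These genes are also counted in the steroidogenesis and chromaffin lists. Their medians were 10941 and 2048 reads over both libraries, against 26 for all genes.

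Sequence could be read for few free ends, since intron bases were available only where another annotated exon covers them. Of the 124 models with both ends at no annotated boundary, 24 had the 50 bases before the end inside an annotated exon and 23 the 20 bases after it. At least 10 of the 20 bases after the end were A in both libraries for 5 of 23 (21.7%, 9.66 to 41.9), against 4.80% of all 20-base windows of the parent transcripts. Parent windows, here and below, come from whole annotated transcripts, whereas the free ends read lie partly in retained-intron exons. The shares are thus not like for like. AATAAA or ATTAAA, searched on the strand of the gene alone, stood in the 50 bases before both ends for 11 of 24 (45.8%, 27.9 to 64.9). By class, the hexamer stood before 1 of 6 ends in exons, 4 of 9 in introns and 6 of 9 past the next acceptor, and the A-rich stretch followed 1 of 5, 2 of 9 and 2 of 9. The same pair stood in 3.77% of all 50-base windows of the parents and at 285 of 380 annotated ends where members stop. These annotated ends were taken from replicate 1 alone, and members of a gene can share an end. Their share and the 11 of 24 are therefore unlike measures. Of the 23 with both windows, none had both features, 11 had the hexamer alone, 5 the A-rich stretch alone and 7 neither. A count of 0 among 23 ends allows a share of up to 13.04%, for counting error only.

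The ends that agreed held the hexamer in 10 of 18 and the A-rich stretch in 5 of 17, and those farther apart in 1 of 6 and 0 of 6. A feature counted only where both libraries had it. Ends that agree share much of a window, whereas ends farther apart need a match in separate windows, so these counts cannot be compared. The Slc38a2 3-exon and Tgfbr3 12-exon models, with ends 206 and 295 bases apart, had AATAAA in a single library and counted as lacking it. The windows read lie in exons of several kinds, among them retained-intron, coding and untranslated sequence, and are not a sample of all ends. A match describes letters in the window and is not evidence of use.

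As a share of the gene's reads, members ranged widely. For the 481 models in genes with at least 20 reads in each library, the median share was 2.22% in replicate 1 and 1.63% in replicate 2. At least 5% in each library was reached by 59 and at least 20% by 4. Those 4 are Son, Sec62, Pnisr and Pop5, the last of subtype Both and ending at an annotated transcript end. Sec62, a part of the protein translocation channel of the endoplasmic reticulum, had a 4-exon model of 18 of 75 reads and 53 of 116 that ended at the annotated end of the fourth exon. Pnisr, a gene of a serine-arginine-rich nuclear protein, had an 11-exon model of 7 of 24 and 7 of 26 that kept the next intron and ended at an annotated end. Meg3, a long non-coding RNA, had a 3-exon model of 16 of 118 and 55 of 336. Plin1, which coats lipid droplets, had a 6-exon model of 6 of 70 and 8 of 87 at an annotated exon end. Among models without an annotated parent, the 14-exon model of Dus1l, a tRNA dihydrouridine synthase gene, had 9 of 47 and 15 of 84 reads. The 5-exon model of Dnajc4, a gene of the DnaJ co-chaperone family, had 5 of 20 and 4 of 31.

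**Figure D5:**
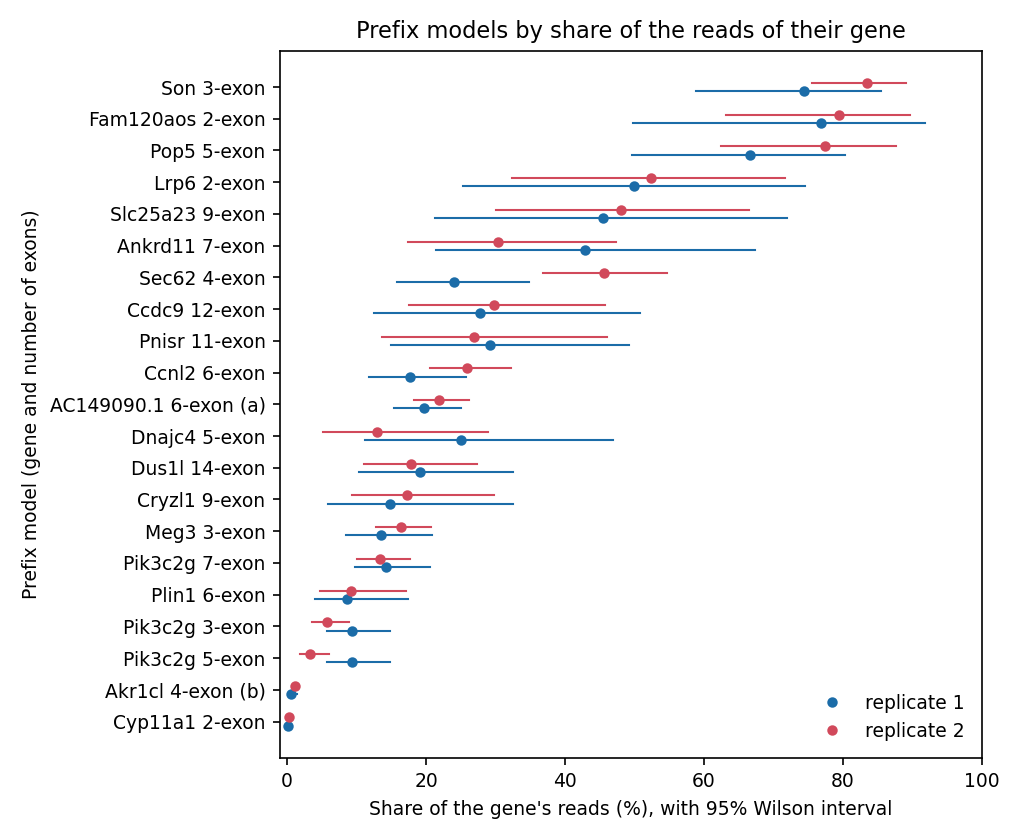
Share of the gene's reads in each library for models of highest share and the most read models with agreeing ends in introns or exons. The highest shares were taken among models of subtype Prefix in genes with at least 20 reads in each library. Bars are 95% Wilson intervals, and a letter in parentheses separates models of 1 gene with the same number of exons. Son, Fam120aos and Pop5 lie highest, from 66.7% to 83.5%, and Sec62 shows the widest gap between the libraries, 24.0% and 45.7%.

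Fisher's exact test, two-sided, then compared each share between the libraries, with p-values adjusted by Benjamini-Hochberg over all 8830 spliced models with enough reads (gene at least 20 in each library, model at least 5 in sum). Of all models, 16 passed an adjusted p of 0.05 (0.181%). Of the 194 members tested, 0 passed, and 15 (7.73%) had an unadjusted p under 0.05 by the same exact test, against 462 of all 8830 models (5.23%). The smallest adjusted p values were those of Abcb1b, 0.0554 for the 2-exon and 0.0597 for the 4-exon model by Fisher's exact test. With genes of at least 50 reads in each library the same exact test gave adjusted p values of 0.0312 and 0.0336, so both passed under that setting. The first held 1.77% of the gene's reads in replicate 1 and 3.79% in replicate 2, and the second 3.78% and 1.82%. For Sec62 the shares were 24.0% and 45.7% with an adjusted p of 0.499 by the same exact test. The test compares the reads of 1 library with those of 1 other, takes reads as independent molecules and has no spread between animals, so a p under the threshold shows a difference between these libraries alone.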

How the data were processed

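Long reads of 2 adrenal gland libraries were analysed from the deposited tables, which hold whole-read counts per transcript model, not normalized. Per the file headers, the models derive from filtered alignments to mm10 and GENCODE M21, and carry TALON attributes. The aligner is not given in the sources used here. Identifiers of unannotated models are particular to a library. The authors' classes were used as given, and prefix models were matched between libraries by gene and intron chain with scripts in Python 3.11.15 (pandas 2.3.3, scipy 1.17.1, numpy 2.4.6). Parents, ends and stop codons were read from GENCODE M21, and sequence from its transcripts. A genome sequence was not used here, so A-rich stretches and hexamers were read only for ends at no annotated boundary inside an annotated exon. Ends past the next acceptor were kept apart from intron ends after the data were seen.

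Counts were not scaled. Depth was 397176 and 712032 reads on annotated genes; Wilson intervals (95%) and limits cover counting error only. Named models were the 10 with the most reads and the 10 with the highest share. The share ranking covered models of subtype Prefix in genes with at least 20 reads in each library. Also named were the 10 intron and 5 exon ends with most reads and agreeing ends. Those past the share test and up to 3 per gene list were added. The lists were steroidogenesis, chromaffin, cholesterol synthesis, cleavage and polyadenylation, U1, textbook intronic polyadenylation, and markers. The rest were named as examples after their values were seen. Members and lists were chosen with earlier results of these data known. The share test was tested on simulated data. The sequence at 1 further end is not reported here. Prefix models of antisense and intergenic genes were left out, and the alternatives were other read minima, distances, parents, windows, denominators and adjustments.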

Additional observations from a re-analysis of the deposited data

Results flagged for a closer look

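Prefix models also occurred outside annotated genes, in genes that the authors' tables class as antisense or intergenic. They held 17 reads in replicate 1, in 8 models, and 33 reads in replicate 2, in 19 models. These data took no part in the comparisons above, because names of such genes are not shared between the libraries.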

How the results depend on the processing

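No paired analysis was possible because there is a single group. The alternatives that count ends past the next acceptor, leave out annotated ends, or take only free ends or only ends in the exon or intron were chosen after seeing the data. The number of shared models was 212 with at least 2 reads in each library, 72 with at least 5, 55 for Both alone, and 2216 to 3959 when a single library was used. The percent in an intron was 14.99 against every annotated exon of the gene, over all 727 models, 24.3 and 19.7 with at least 2 and 5 reads, 72.6 with ends past the next acceptor, 41.0 without annotated ends and 34.7 to 36.3 with either library alone. Ends agreed for 75.1% within 5 bases, 83.5% with at least 2 reads in each library and 66.1% at free ends. The percent at an annotated end was 54.1 within 100 bases (53.9 within 50), 37.0 for ends in the exon or intron and 56.9 to 57.1 with either library alone. Median missing exons were 1 with at least 5 reads in each library and 5 for ends in the exon or intron. The percent of reads was 0.611 over spliced models and 1.06 for all prefix models. A-rich ends were 17.4% by a run of 6 A. Hexamers stood at 37.5% for AATAAA alone, 41.7% in the last 40 bases and 47.8% in the last 100, and at 50% to 52% with either library alone. The number of members whose share passed the test between the 2 libraries was 2 for genes with at least 50 reads, both of Abcb1b (adjusted p of 0.0312 and 0.0336, Fisher's exact test), and 0 under the other settings run. Depth limits the rest: 253 of 727 models rest on 1 read in each library.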

Other observations

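The 2-exon and the 4-exon prefix models of Abcb1b, looked at together after their values were seen, held 94 of 1694 reads of the gene in replicate 1 and 139 of 2477 in replicate 2. The shares of the pair were 5.55% and 5.61%, although each model alone differed in opposite directions between the libraries. In replicate 1 both ended 1006 bases past the donor of their last exon, in 2 different introns.

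AC149090.1, a gene on an unplaced scaffold, had 11 shared prefix models with 92 of 258 reads in replicate 1 and 141 of 415 in replicate 2, 35.7% and 34.0% of the gene. The most read is a 6-exon model with 51 and 91 reads that kept the last intron. Its ends were 781 bases apart. Akr1cl had 10 such models with 34 and 113 reads, among them a 9-exon model of 13 and 52 reads that kept the last intron and ended 5 bases apart in the 2 libraries, at no annotated boundary. Hsp90aa1, a chaperone gene, had a 5-exon model of 1 read among 150 in replicate 1 and 12 among 152 in replicate 2, an adjusted p of 0.472 by Fisher's exact test.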
